A study of Mus musculus with 4 samples.

Results

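The Gasdermin C cluster of the mouse is a group of 4 neighbouring genes, Gsdmc, Gsdmc2, Gsdmc3 and Gsdmc4, and all 4 were listed among the 56748 genes of the count table. They were found by gene name. The group was picked because its genes rose in p53-/- tissue in the same libraries described here, so the difference between genotypes in these genes is given as a description and no test is used to support it. The libraries came from the small intestine (SI) of p53+/+ mice, also labelled WT, and of p53-/- mice, aged 8 to 12 weeks and matched for age and sex, collected 1 day after total-body irradiation (TBI) with 12 Gy. The p53-/- mice, from the Jackson Laboratory, lack p53 from the germline and so in every cell of the tissue, epithelial and immune alike. Each genotype had 2 libraries, named 7 and 8 for p53+/+ and 9 and 10 for p53-/- after the columns of the table, and these numbers pair no animals. Every mouse was irradiated, so an effect of p53 loss that is present without TBI cannot be told apart from one that needs it. RNA was taken from SI tissue as a whole, and in such bulk samples fewer cells of a type and less RNA per cell cannot be told apart.

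Gasdermins are proteins held inactive by their own C-terminal domain. When a protease cuts the linker, the N-terminal domain is freed, assembles in the plasma membrane and forms pores through which a cell can release its contents or lyse, a form of death called pyroptosis. GSDMC is known as a substrate of caspase-8. In the mouse gut the Gasdermin C genes are expressed by epithelial cells and are known to be induced by the type 2 cytokines IL-4 and IL-13 acting through STAT6, for example during worm infection. The human genome has a single GSDMC gene in place of the mouse cluster.

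The mouse genes are so alike that their sequences decide how well reads can be told apart, and short stretches of them are shown first for that reason. In the GENCODE M21 transcripts, the coding sequences of Gsdmc2, Gsdmc3 and Gsdmc4 each held 1440 bases without the stop codon and that of Gsdmc held 1404. Gsdmc2 and Gsdmc3 were 97.1% identical, with 42 differing bases of 1440 and an unbroken identical run of 317 bases. Gsdmc4 was 93.5% identical to Gsdmc2 and 93.4% to Gsdmc3. Gsdmc stood further off, at 86.1% to 86.4% identity with the other genes. The first 90 coding bases, from the start codon, differed at only 2 positions among Gsdmc2, Gsdmc3 and Gsdmc4, which are in capitals here:
Gsdmc2: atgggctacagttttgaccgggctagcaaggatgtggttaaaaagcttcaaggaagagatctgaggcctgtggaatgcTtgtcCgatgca
Gsdmc3: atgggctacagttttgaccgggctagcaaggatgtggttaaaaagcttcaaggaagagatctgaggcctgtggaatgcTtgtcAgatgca
Gsdmc4: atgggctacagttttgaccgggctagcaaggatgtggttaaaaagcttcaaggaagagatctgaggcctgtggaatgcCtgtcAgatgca
A read lying wholly within this stretch could be told apart among the 3 genes only by those positions. The first sets Gsdmc4 apart and the second Gsdmc2, while Gsdmc3 needs both. The 90 bases with the most differences, counted from the start codon as bases 778 to 867 of Gsdmc2 and Gsdmc3 and 784 to 873 of Gsdmc4, differed at 22 positions, again in capitals:
Gsdmc2: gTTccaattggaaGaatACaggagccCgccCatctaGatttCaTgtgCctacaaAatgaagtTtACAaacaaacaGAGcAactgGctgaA
Gsdmc3: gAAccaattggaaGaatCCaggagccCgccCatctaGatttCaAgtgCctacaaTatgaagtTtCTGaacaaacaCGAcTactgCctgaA
Gsdmc4: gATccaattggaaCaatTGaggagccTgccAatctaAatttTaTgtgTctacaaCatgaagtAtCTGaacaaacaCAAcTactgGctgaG

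Whole transcripts were compared by windows, taking every stretch of 100 bases of a gene's transcripts and asking whether it also occurred in a transcript of another gene. Of the windows of Gsdmc2, 28.6% (657 of 2297) occurred elsewhere. The share was 28.4% for Gsdmc3 (634 of 2229), 20.2% for Gsdmc4 (402 of 1986) and 7.0% for Gsdmc (169 of 2404). All of these shared windows lay in other genes of the cluster, with 531 windows common to Gsdmc2 and Gsdmc3. With windows of 50 bases the shares of Gsdmc2, Gsdmc3 and Gsdmc4 were 51.3%, 46.0% and 39.0%. With windows of 150 bases they were 14.9%, 18% and 8.8%. How the counting treated a read with more than 1 possible gene was not given in the sources used here, so the split of counts among Gsdmc2, Gsdmc3 and Gsdmc4 is uncertain while their sum is less so. No exon of the 4 genes overlapped an exon of any other annotated gene, on either strand.

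**Figure D1:**
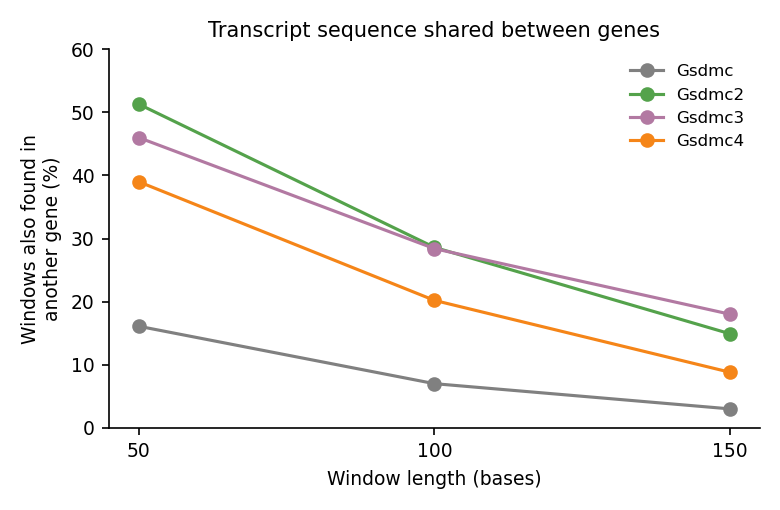
Percent of transcript windows (vertical axis) also found in another gene, against the window length in bases (horizontal axis), for each Gasdermin C gene; 1 point per gene and length. At every length the share was lowest for Gsdmc, and Gsdmc2 fell from 51.3% at 50 bases to 14.9% at 150 bases.

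The promoter table of RefSeq for GRCm38.p6 held 1 of the 4 genes, Gsdmc3. Its 300 bases run from 250 before to 50 after the annotated start, at chr15:63878509-63878808 on the minus strand, and are shown because they are the only control sequence of the cluster in hand; capitals mark a TATAA motif.
Gsdmc3 promoter: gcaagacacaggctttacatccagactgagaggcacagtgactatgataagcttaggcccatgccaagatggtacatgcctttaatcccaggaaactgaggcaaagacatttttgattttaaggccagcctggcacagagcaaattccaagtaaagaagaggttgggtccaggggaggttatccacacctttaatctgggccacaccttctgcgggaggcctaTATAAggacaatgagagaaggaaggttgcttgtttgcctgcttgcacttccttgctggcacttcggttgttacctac
The TATAA motif began at position -27 from the start, and 24.9% of the 32851 promoters in the table held this motif on either strand. Neither TTCNNNGAA, a motif of STAT proteins found in 8.3% of promoters, nor TTC and GAA with 4 bases between them, the spacing preferred by STAT6 and found in 7.0%, was present in the Gsdmc3 window on either strand. A p53 half-site, found in 8.4% of promoters, was not in the window either. These are matches of letters only.

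Gsdmc2, Gsdmc3 and Gsdmc4 were close to undetected in the p53+/+ SI post-TBI and were clearly counted in the p53-/- SI, while Gsdmc was at 0 in both genotypes. Summed over the 4 genes, 19 and 18 reads fell on the cluster in p53+/+ libraries 7 and 8, and 846 and 528 in p53-/- libraries 9 and 10. Scaled to library size after TMM normalization, as CPM, which brings the counts to a shared library size, the sum was 1.18 and 1.17 CPM in p53+/+ and 37.1 and 26.3 CPM in p53-/- SI. The means were 1.17 ± 0.00561 and 31.7 ± 7.65 CPM (SD, n = 2), and the reads of both libraries pooled gave a ratio of 27.3 with an exact 95% counting interval of 19.7 to 39.0. Ratios of single genes were pooled in the same way and so differ slightly from the ratio of the means. That interval, like the others here, covers counting error only and not the spread between animals.

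Gsdmc4 had the most reads of the cluster. It was counted 14 and 9 times in p53+/+ libraries 7 and 8 and 422 and 259 times in p53-/- libraries 9 and 10. This was 0.866 and 0.584 CPM against 18.5 and 12.9 CPM, or 0.725 ± 0.2 and 15.7 ± 3.97 CPM (SD, n = 2). The ratio was 21.8, with a counting interval of 14.4 to 34.6. Both p53-/- libraries lay far above both p53+/+ libraries.

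Gsdmc2 was counted 2 and 6 times in the p53+/+ libraries and 313 and 163 times in the p53-/- libraries. Its level was 0.124 and 0.389 CPM in p53+/+ and 13.7 and 8.11 CPM in p53-/- SI, with means of 0.257 ± 0.188 and 10.9 ± 3.97 CPM (SD, n = 2). The ratio of 43.8 rested on 8 reads in p53+/+ and had a wide counting interval of 22 to 102.

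Gsdmc3 was counted 3 times in each p53+/+ library and 111 and 106 times in the p53-/- libraries. Its level was 0.186 and 0.195 CPM in p53+/+ and 4.87 and 5.27 CPM in p53-/- SI, with means of 0.19 ± 0.00636 and 5.07 ± 0.288 CPM (SD, n = 2), and a ratio of 26.6 with a counting interval of 12.0 to 73.3. The counting intervals of the 3 genes overlapped one another, and their ratios were not compared directly in a test.

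Gsdmc had 0 reads in all 4 libraries, of 15005479 to 22173164 counts in total. A count of 0 allows up to 3 reads, which is 0.131 to 0.195 CPM in these libraries, and no ratio can be given for it. Gsdmc also had the smallest share of windows in common with the others, so most of a Gsdmc transcript could be told apart from theirs.

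**Figure D2:**
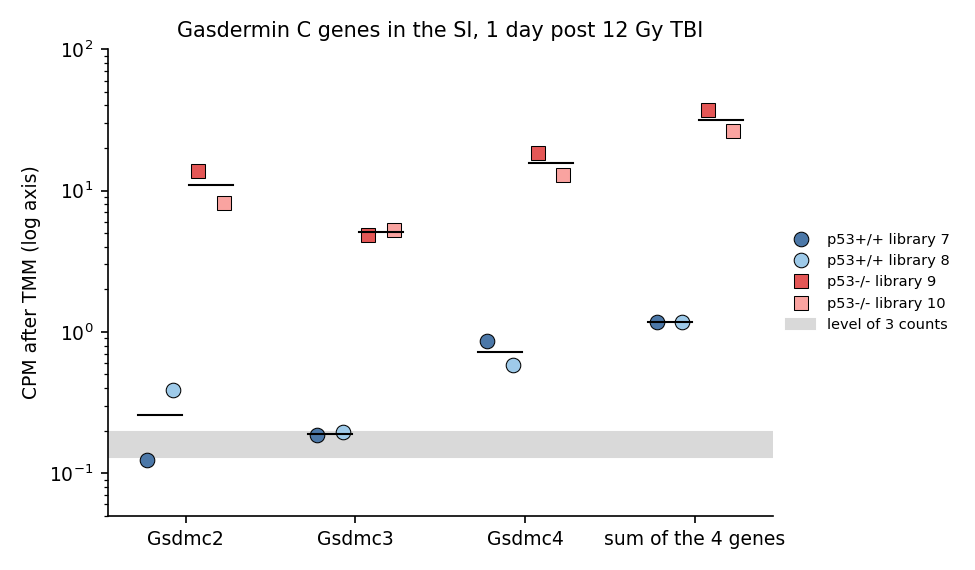
CPM after TMM normalization on a log axis for Gsdmc2, Gsdmc3, Gsdmc4 and the sum of the 4 genes, with 1 point per library and a line at the mean of each genotype; the grey band is the level of 3 counts. The p53-/- libraries lay at 26.3 and 37.1 CPM for the sum and the p53+/+ libraries at 1.17 and 1.18 CPM, and Gsdmc, at 0 throughout, is not drawn.

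The difference between genotypes was calculated as a log2 difference with a prior count of 2, which keeps genes with few reads finite. It was 4.98 for Gsdmc2, 4.12 for Gsdmc3, 4.24 for Gsdmc4 and 4.61 for the sum. In the fit across 16094 genes with edgeR's quasi-likelihood test, these 3 genes ranked 78, 121 and 142 by the size of the rise. Gsdmc3 and Gsdmc4 passed the threshold of 0.05 after Benjamini-Hochberg adjustment, Gsdmc2 did not, and Gsdmc had too few reads to be tested. Across all genes tested, 0.298% were called higher and 0.193% lower in p53-/-, and the genotypes did not overlap, with p53-/- higher, in 26.4% of genes and lower in 24.4%. The cluster was chosen on this contrast, so nothing is read from these calls.

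Levels of different genes were compared per kilobase of annotated exon, since a longer transcript gives more reads. In p53-/- SI the order was the same in both libraries. Gsdmc4 was highest, at 8.86 and 6.17 CPM per kb in libraries 9 and 10, followed by Gsdmc2 at 5.93 and 3.5 CPM per kb and Gsdmc3 at 2.09 and 2.26 CPM per kb. The libraries of neighbouring genes in this order did not overlap in level. In p53+/+ SI, Gsdmc4 was again highest, at 0.415 and 0.28 CPM per kb, and Gsdmc2, at 0.0535 and 0.168 CPM per kb, lay on both sides of Gsdmc3, at 0.0797 and 0.0836 CPM per kb.

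If reads that match more than 1 gene were dropped before counting, the length that matters is the part of a gene without shared windows. Per kilobase of windows found in 1 gene alone, Gsdmc4 reached 11.7 and 8.13 CPM in p53-/- libraries 9 and 10, Gsdmc2 reached 8.36 and 4.94 CPM, and Gsdmc3 reached 3.05 and 3.31 CPM. The order of the genes was the same as per kilobase.

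The p53-/- libraries differed from each other in the make-up of the cluster's counts. Gsdmc4 held 49.9% of the cluster's counts in library 9 (95% Wilson interval 46.5% to 53.2%) and 49.1% in library 10 (44.8% to 53.3%), which differed by less than the counting error. Gsdmc3 held 13.1% in library 9 (11.0% to 15.6%) and 20.1% in library 10 (16.9% to 23.7%), and these intervals did not overlap. Gsdmc2 held 37.0% in library 9 (33.8% to 40.3%) and 30.9% in library 10 (27.1% to 34.9%). In CPM, Gsdmc2 was 1.69 times and Gsdmc4 1.44 times as high in library 9 as in library 10, while Gsdmc3 was 0.923 times as high. With 19 and 18 counts in all, the p53+/+ libraries could not show such a difference, where Gsdmc4 had 14 of 19 counts in library 7 (51.2% to 88.2%) and 9 of 18 in library 8 (29.0% to 71.0%). For Gsdmc, 0 of 846 and 0 of 528 counts allowed a share of up to 0.452% and 0.722% at the upper end of the Wilson interval.

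**Figure D3:**
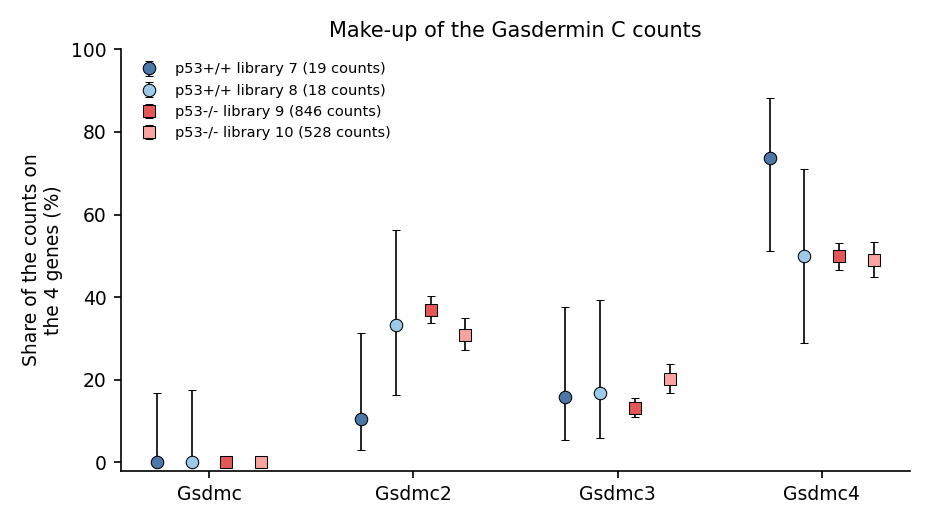
Share of the cluster's counts that fell on each gene (percent) in each library, with 95% Wilson intervals as bars. Gsdmc4 held 49.9% and 49.1% in the p53-/- libraries, and the wide bars of the p53+/+ libraries reflect 19 and 18 counts in all.

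In the annotation, the 4 genes lie on the minus strand and alternate with transcribed pseudogenes on the plus strand, in the order Gsdmc, 1700065I16Rik, Gsdmc2, Gsdmcl1, Gsdmc3, Gsdmcl2, Gsdmc4 and Gsdmcl-ps. Gsdmcl2, between Gsdmc3 and Gsdmc4, had 0 reads in both p53+/+ libraries and 22 and 17 in p53-/- libraries 9 and 10. Taken against 3 counts in each p53+/+ library, it was at least 4.76-fold higher in p53-/-, but it did not pass the test (adjusted p = 0.113, edgeR's quasi-likelihood test). Gsdmcl2 shared no 100-base window with any of the 4 genes. Gsdmcl-ps had 1, 0, 3 and 0 reads in libraries 7 to 10, and 1700065I16Rik and Gsdmcl1 had 0 in every library.

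None of the protein-coding genes on either side of the cluster passed the test. Myc, a transcription factor of growth and proliferation next to Gsdmc, was at 49.1 and 36.8 CPM in p53+/+ and 43.7 and 50.7 CPM in p53-/- SI (log2 fold change 0.14, adjusted p = 0.788). Cyrib, a regulator of the actin cytoskeleton next to Gsdmc4, was at 42.1 and 36.8 CPM against 41.2 and 70.0 CPM (0.49, adjusted p = 0.429). Lratd2 was at 78.2, 56.3, 73.4 and 61.9 CPM and Adcy8, an adenylyl cyclase, at 30.9, 27.4, 34.5 and 28.9 CPM in libraries 7 to 10. The genotypes overlapped for these 4 neighbours. Asap1 was at 98.9 and 43.1 CPM against 26.5 and 33.7 CPM, a log2 fold change of -1.24 that did not pass the test (adjusted p = 0.211), and A1bg had 0 reads in every library.

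Of the other gasdermins, none passed the test. Gsdmd, the gasdermin cut by inflammatory caspases, was at 113, 108, 99.4 and 98.1 CPM per kb in libraries 7 to 10, above each Gasdermin C gene in every library. Its log2 fold change was -0.16 (SE 0.175, adjusted p = 0.695). Gsdme, which granzyme B can cut, was at 24.1 and 26.3 CPM per kb in p53+/+ and 13.8 and 9.59 CPM per kb in p53-/- SI. Both p53-/- libraries were below both p53+/+ libraries for Gsdme, with a log2 fold change of -1.11 (SE 0.24) that did not pass edgeR's quasi-likelihood test (adjusted p = 0.118) and did pass DESeq2 (adjusted p = 0.000287); over the 12 alternatives the adjusted p ran from 0.000252 to 0.622.

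Gsdma was low, at 0.522, 0.19, 0.37 and 0.365 CPM per kb, with overlapping genotypes. Gsdma2 had 5, 5, 18 and 3 reads in libraries 7 to 10, Pjvk had 3 reads in library 10 and 0 in the others, and Gsdma3 had 0 in every library. Ninj1, which ruptures the membrane of a dying cell downstream of gasdermin pores, was at 9.85, 7.11, 7.76 and 12.0 CPM per kb (log2 fold change 0.22, adjusted p = 0.795). Among these 7 genes, 4 were tested. With edgeR 0 passed and 1, Gsdme, had an unadjusted p under 0.05 and was lower, and with DESeq2 1 passed, again Gsdme. Over all genes tested, 10% were higher and 7.92% lower at an unadjusted p under 0.05 in edgeR's test, and 5.15% passed as higher and 4.18% as lower with DESeq2, and the counts of every list below stand beside these shares. Their median log2 fold change was -0.06, beside -0.008 over all genes tested.

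Of 10 proteases known to cut gasdermins, 8 had enough reads to be tested. With edgeR 2 of these passed, both higher in p53-/-, beside 0.298% of all genes called higher. At an unadjusted p under 0.05, 5 were higher and 0 lower, beside 10% and 7.92% of all genes. With DESeq2, 4 passed as higher and 0 as lower, beside 5.15% and 4.18%. Gzma, a granzyme of cytotoxic lymphocytes that cuts GSDMB in humans, was at 4.58 and 8.05 CPM in p53+/+ and 66.0 and 83.2 CPM in p53-/- SI, a log2 fold change of 3.56 (SE 0.32, adjusted p = 0.0296). Gzmb, the granzyme that cuts GSDME, was at 2.66 and 4.67 CPM against 30.2 and 40.3 CPM, a log2 fold change of 3.27 (SE 0.363, adjusted p = 0.0453). Both p53-/- libraries were above both p53+/+ libraries for each granzyme.

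The granzyme calls depended on single libraries and on the scaling. Without library 10 neither granzyme passed, with adjusted p = 0.306 for Gzma and 0.359 for Gzmb, and Gzmb was also not called without library 9 (adjusted p = 0.0655). With library size only in place of TMM neither passed (0.0568 and 0.0675). Among the 12 alternatives, fold changes of Gzma on the log2 scale stayed between 3.22 and 4.02 and that of Gzmb between 2.92 and 3.72.

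Casp8, the protease known to cut GSDMC, was at 237 and 168 CPM in p53+/+ and 197 and 180 CPM in p53-/- SI, with overlapping genotypes and a log2 fold change of -0.1 (SE 0.227, adjusted p = 0.864). Its adjusted p was between 0.425 and 0.994 over the 12 alternatives.

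Casp4, the mouse caspase that senses bacterial lipopolysaccharide in the cytosol, was at 33.8 and 37.8 CPM against 88.8 and 75.1 CPM (log2 fold change 1.19, adjusted p = 0.0592). It missed the threshold in edgeR's test and passed in DESeq2, and its genotypes did not overlap. Casp1, the inflammasome caspase, had a log2 fold change of 0.59 (adjusted p = 0.192) and Casp6 of 0.36. Elane and Ctsg, proteases of neutrophil granules, had 0 reads in every library. The median of the 8 proteases tested was a log2 fold change of 0.81.

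Of the ligands of the IL-4 and IL-13 axis, which induces Gasdermin C genes in other settings, Il13 had 0 reads in every library and Il4 had 0, 7, 15 and 9 reads in libraries 7 to 10. Il13ra2, the decoy receptor, had 0, 2, 0 and 8 reads. The signalling receptor chains were among the better expressed genes of the list. Il4ra was at 108 and 117 CPM in p53+/+ and 133 and 130 CPM in p53-/- SI (log2 fold change 0.23, SE 0.158, adjusted p = 0.525), and Il13ra1 at 142 and 126 against 163 and 136 CPM (0.16, adjusted p = 0.726).

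Stat6, the transcription factor of this axis, was at 158 and 152 CPM in p53+/+ and 134 and 121 CPM in p53-/- SI (log2 fold change -0.28, adjusted p = 0.446). The kinases Jak1 and Tyk2 had log2 fold changes of 0.08 and -0.01. The 3 genes of the list with an unadjusted p under 0.05 were Il2rg, Jak3 and Socs1, and the cells that expressed them cannot be told in bulk tissue. Il2rg, the common chain of several cytokine receptors, was at 0.681 and 2.14 CPM against 6.27 and 25.8 CPM (3.5, adjusted p = 0.148). Jak3, the kinase bound to that chain, had a log2 fold change of 1.81 (adjusted p = 0.134), and Socs1, a feedback inhibitor of cytokine signalling, one of 2.08 (adjusted p = 0.119). Of 11 genes, 8 were tested and 0 passed with edgeR, 3 passed with DESeq2, and the median log2 fold change was 0.19.

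**Figure D4:**
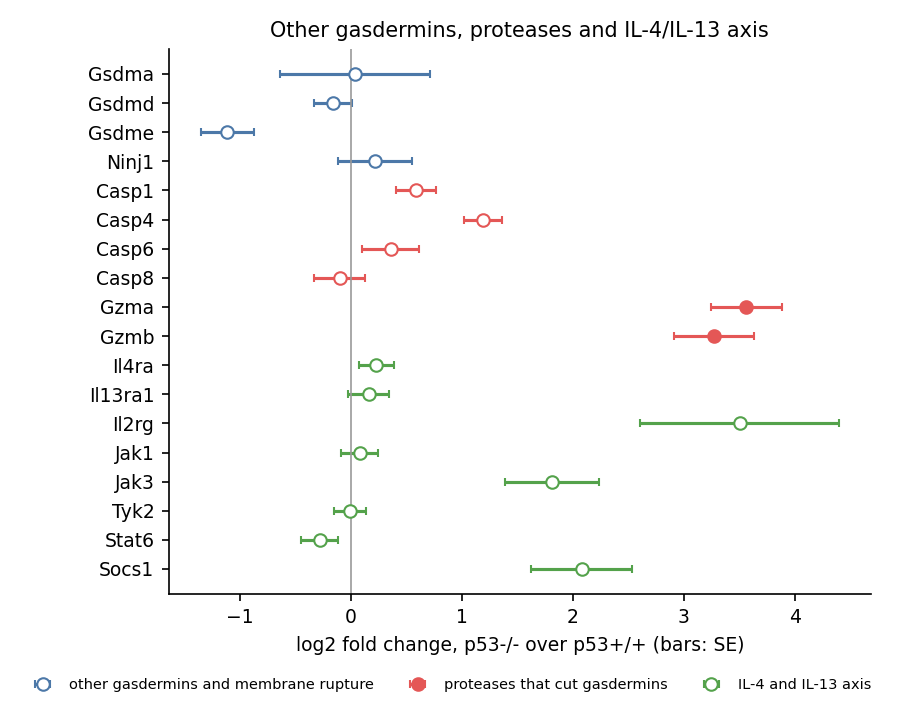
Log2 fold change of p53-/- over p53+/+ (horizontal axis, bars are the standard error) for tested genes named in the text of the other gasdermins with Ninj1, the proteases and the IL-4 and IL-13 axis; filled points passed edgeR's test after adjustment and open points did not. Gzma at 3.56 and Gzmb at 3.27 are the filled points, and Casp8, Il4ra and Stat6 lie near 0.

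The epithelial alarmins that start type 2 responses were scarce. Il25, made by tuft cells, had 1, 1, 8 and 9 reads in libraries 7 to 10, and Tslp had 1, 2, 7 and 11. Both were too low to be tested. For each, both p53-/- libraries were above both p53+/+ libraries, which also held for 26.4% of all genes tested, so nothing is read from these few reads. Il33 was at 4.27, 6.29, 7.71 and 6.27 CPM (log2 fold change 0.4, adjusted p = 0.655).

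Of the genes of the epithelial type 2 response other than the gasdermins, 12 were tested and 0 passed with edgeR. An unadjusted p under 0.05 was found for 1 gene, Pla2g4c, which was also the 1 gene past the threshold with DESeq2, and the median log2 fold change was 0.25. Pla2g4c, a phospholipase, was at 0.681 and 1.3 CPM against 6.49 and 5.27 CPM (2.57, adjusted p = 0.106) and was picked out for its value. The most abundant genes of the list were Fcgbp and Clca1, products of goblet cells, and Itln1, a secreted lectin, with log2 fold changes of -0.22, -0.35 and 0.63. Itln1 was at 1570 and 1060 CPM in p53+/+ and 2060 and 2000 CPM in p53-/- SI, without overlap, and did not pass the test (adjusted p = 0.371). Retnlb, the goblet cell product often used to read a type 2 response, had 1, 12, 23 and 9 reads, and Muc5ac had 0 in every library.

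Tuft cells release Il25 and expand in type 2 responses, and their markers were all tested. Of 12 markers, 0 passed with edgeR or DESeq2, 1 was higher at an unadjusted p under 0.05, beside 10% of all genes, and the median log2 fold change was -0.17. Their summed level was 81.2 and 113 CPM in p53+/+ and 82.7 and 86.5 CPM in p53-/- SI. Dclk1, a kinase used as the tuft cell marker, was at 15.7, 17.5, 11.3 and 12.2 CPM. Ptgs1 and Trpm5, the taste-type ion channel of these cells, had log2 fold changes of -0.2 and -0.26.

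Markers of the epithelium that expresses Gasdermin C genes were lower in sum in p53-/-. The summed enterocyte markers were at 28700 and 28500 CPM in p53+/+ and 22400 and 18600 CPM in p53-/- SI. Of 11 enterocyte genes tested 0 passed with edgeR, 3 were lower at an unadjusted p under 0.05, beside 7.92% of all genes, 4 passed as lower with DESeq2, beside 4.18%, and the median log2 fold change was -0.7. The most abundant were Anpep, Apoa1 and Vil1, with log2 fold changes of -0.21, -0.88 and -0.46. Goblet markers summed to 18400 and 15800 CPM against 13800 and 11600 CPM, with 0 of 7 past the threshold with edgeR, 1 lower at an unadjusted p under 0.05 and 1 lower with DESeq2, in both cases Zg16, and a median of -0.34. Fcgbp, Zg16 and Clca1 were the most abundant, and Zg16 had a log2 fold change of -0.96. Divided by the summed enterocyte counts in place of the library size, the log2 difference of the cluster was 5.08 rather than 4.61.

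The labelled tissue was checked against markers, since Gasdermin C genes are also known from the colon. The ileal genes Fabp6, a bile acid binding protein, at 5480, 1840, 1640 and 2070 CPM, and Slc10a2, the ileal bile acid transporter, at 1040, 1290, 785 and 717 CPM, were high in every library. The 4 ileal genes summed to 8320 and 4340 CPM in p53+/+ and 3140 and 3590 CPM in p53-/-, with 0 past the threshold with edgeR, 2 lower at an unadjusted p under 0.05, 2 lower with DESeq2 (Slc51a and Slc10a2) and a median log2 fold change of -0.81. Of the proximal SI genes, Lct was at 0.99 and 0.714 CPM in p53+/+ and 0.526 and 0.497 CPM in p53-/-, lower without overlap. Fabp1 was at 5.45 and 3.76 against 2.41 and 4.03 CPM, with overlap. Gata4 was at 2.35 and 0.454 against 3.2 and 4.13 CPM, higher in p53-/- without overlap. The same held for Onecut2, at 0.433 and 0.13 against 0.833 and 1.99 CPM. Across all genes tested, 26.4% were higher and 24.4% lower in p53-/- without overlap. Of 4 proximal genes tested, 0 passed with edgeR or DESeq2, 1 (Onecut2) was higher at an unadjusted p under 0.05, and the median was 0.43. The ileal sum was thus lower in p53-/- without overlap, and its median of -0.81 stood beside -0.7 for enterocyte markers. The proximal sum overlapped, at 9.34 and 5.06 CPM in p53+/+ and 7.01 and 10.9 CPM in p53-/-. The part of segment markers in the cluster's difference was not tested. Of the colon list, Hoxd10, Hoxd12 and Hoxd13 had 0 reads in every library, and Car1 (0, 4, 13 and 8 reads), Aqp8 (1, 0, 0 and 3) and Hoxb13 (0, 0, 1 and 1) were near 0. The colon list summed to 835 and 860 CPM in p53+/+ and 1440 and 1200 CPM in p53-/-. Of its 10 genes tested 0 passed with edgeR, and an unadjusted p under 0.05 was found for 2 higher and 5 lower genes, beside 10% and 7.92% of all genes. The median was -0.35, and 1 higher and 3 lower genes passed with DESeq2. Saa1, at 8.42 and 104 against 784 and 667 CPM, made up much of that sum. The most abundant colon genes besides Saa1 were B4galnt2 and Mettl7b, with log2 fold changes of -0.22 and -0.49.

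Lymphocyte markers were higher in sum in p53-/- and are given beside the cluster for that reason. Summed B cell markers were at 2.35 and 3.05 CPM in p53+/+ libraries and 27.1 and 580 CPM in p53-/- libraries 9 and 10, a ratio of 21.4 between the p53-/- libraries. All 9 tested genes of the 10 were higher at an unadjusted p under 0.05, beside 10% of all genes, while 0 passed with edgeR and 6 with DESeq2, beside 5.15%. Pax5, Fcer2a and Blk were among the genes that had 0 reads in both p53+/+ libraries. The most abundant, Cd79a, went from 0.186 and 0.908 CPM to 11.4 and 127 CPM, and Cd79b and Ms4a1 likewise were highest in library 10, at 80.6 and 70.0 CPM. Follicle and M cell markers summed to 222 and 218 against 276 and 492 CPM, with 8 tested, 0 past the threshold with edgeR, 5 higher at an unadjusted p under 0.05, 4 with DESeq2 and a median of 1.43. Among them Marcksl1, Tnfrsf11a and Anxa5 were the most abundant, with log2 fold changes of 0.08, 0.22 and 0.7.

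Summed T cell markers were at 8.17 and 15.6 CPM in p53+/+ and 72.1 and 135 CPM in p53-/- SI. Of 9 tested, 0 passed with edgeR, 9 were higher at an unadjusted p under 0.05 and 9 passed with DESeq2, and the median was 3.13. Lck, Cd8a and Cd4 were the most abundant, with Cd8a at 1.55 and 3.44 CPM against 19.9 and 19.8 CPM.

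The cluster and the summed lymphocyte markers were highest in different p53-/- libraries. B, T and follicle markers were 21.4, 1.88 and 1.78 times as high in library 10 as in library 9. The Gasdermin C sum was 1.41 times as high in library 9 as in library 10. Single lymphocyte genes varied in this, with Cd8a at 19.9 and 19.8 CPM in libraries 9 and 10. This sets 1 library against 1, and a link of the cluster to lymphocytes was not tested. Without library 10, the log2 difference of the cluster was 4.86, and without library 9 it was 4.36. Library 10 also carried more 18S ribosomal RNA, at 4.59% of its counts beside 0.296% to 0.863% in the others.

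**Figure D5:**
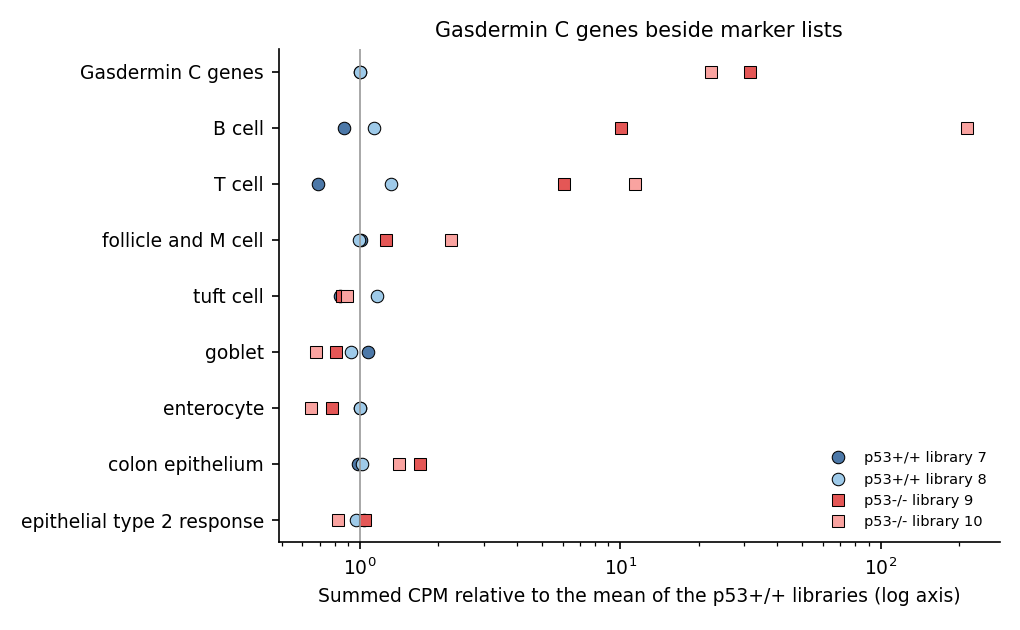
Summed CPM of the Gasdermin C genes and of 8 marker lists in each library, relative to the mean of the p53+/+ libraries (horizontal log axis), 1 point per library. The Gasdermin C sum was higher in library 9 than in library 10, while the B cell sum was 580 CPM in library 10 and 27.1 CPM in library 9.

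Interferon gamma is another cytokine of lymphocytes, and its axis was listed beside the type 2 axis. Ifng had 0, 2, 8 and 13 reads. Of 7 genes tested 0 passed with edgeR, 3 higher and 1 lower had an unadjusted p under 0.05, beside 10% and 7.92% of all genes, and 3 higher and 1 lower passed with DESeq2, with a median of 0.08. The most abundant were the receptor chains Ifngr1 and Ifngr2, with log2 fold changes of -0.66 and -0.52, and Irf1. Ifngr1 was the lower gene in both counts. Irf1, a transcription factor induced by interferons, was at 135 and 65.5 CPM against 252 and 265 CPM (log2 fold change 1.37, adjusted p = 0.156).

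Genes whose levels over the 4 libraries were most like the cluster's sum were found by the root mean square distance between log2 CPM profiles. Each profile used a prior count of 2 and was centred on its own mean. Among tested genes whose mean log2 CPM was 0 or more, the closest were Apol10c-ps (0.136), Ighv1-85 (0.164), Plet1os (0.192), Mcpt1 (0.268) and Dmbt1 (0.269). Gsdmc4, Gsdmc3 and Gsdmc2 themselves lay at 0.252, 0.328 and 0.442 from their sum. The likeness rests on 4 libraries. Apol10c-ps, Ighv1-85, Plet1os and Mcpt1 had 0 or 1 read in each p53+/+ library. Their p53+/+ levels in the profiles were therefore set largely by the prior count, which limits what their likeness can show.

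Dmbt1, a secreted scavenger receptor of the mucosa, was the most abundant of the 5, at 79.9 and 128 CPM in p53+/+ libraries 7 and 8 and 2580 and 1730 CPM in p53-/- libraries 9 and 10. Mcpt1, a protease of mucosal mast cells, had 0 and 0 reads against 70 and 27. Ighv1-85, an immunoglobulin segment, had 0 and 0 against 88 and 40 reads. Apol10c-ps had 1 and 1 against 139 and 70 reads, and Plet1os had 1 and 1 against 100 and 49. Plet1os overlaps exons of Plet1 by 261 bases, of 1245 exon bases, and without a stated strand reads in that overlap cannot be told apart from those of Plet1.

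As a check of the labels, Trp53, the gene that encodes p53, was at 57.7 and 47.1 CPM in p53+/+ and 19.8 and 22.5 CPM in p53-/- SI, lower in both p53-/- libraries (log2 fold change -1.31, SE 0.188, adjusted p = 0.0602). Within a genotype, counts of the 2 libraries differed far beyond the noise of sampling reads, so they were taken as separate samples. With 2 libraries a genotype, p-values measure the spread between these libraries only, which may in part be technical.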

How the data were processed

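The SI was sequenced 1 day post-TBI (12 Gy) in 2 libraries per genotype. For 56748 genes, the authors deposited the counts of reads as whole numbers, without normalization. The table paired gene identifiers with names and held no coordinates. The submitters' processing notes name fastp, HISAT2 2.0.5, featureCounts 1.5.0-p3 and DESeq2 1.20.0. The genome build, the strand setting and the treatment of reads with several possible genes were not given in the sources used here. Totals were 15005479 to 22173164 counts per library.

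Counts were scaled by TMM, low genes were removed by filterByExpr, and 16094 genes were tested with edgeR 4.0.16 (R 4.3.3), two-sided quasi-likelihood test with Benjamini-Hochberg adjustment and a threshold of 0.05. "Called" and "passed" refer to this threshold. Fold changes are p53-/- over p53+/+. Fitted fold changes of genes at 0 in a genotype depend on edgeR's prior and are not bounds. The members and the gene lists were chosen with earlier results of these data known, and the ileal and proximal lists were added after their values were seen. Exon lengths, transcript sequences, strand and the order of neighbours came from GENCODE M21, which matched 91.8% of the gene identifiers. No coordinates from it are given because the build of the counts is not known. Promoters came from RefSeq on GRCm38.p6. Genes named in the text are the members, other gasdermins with Pjvk and Ninj1, the 3 nearest protein-coding genes on each side, the proteases and IL-4 and IL-13 genes, called or 3 most abundant genes of each other list, and the 5 genes most like the summed counts; others are named as markers near 0 or for their values. Scripts were tested on simulated data. Alternatives were RLE and upper-quartile factors, library size only, DESeq2 1.42.0, at least 10 counts in every library, edgeR's likelihood ratio test, leaving out the filter, prior counts of 0.5 and 5, windows of 50 and 150 bases and each library left out. Leaving out the 18S gene and scaling by enterocyte counts were added after seeing the data. Some genes of the lists are included in the counts but are not reported here.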

Additional observations from a re-analysis of the deposited data

How the results depend on the processing

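No paired analysis was possible because the columns of the count table give the genotype but not the replicate number of the labels. Genes called were 48 higher and 31 lower in p53-/-, against 29 and 20 with upper-quartile factors, 26 and 20 with library size only, 796 and 647 with DESeq2, 833 and 462 with the likelihood ratio test, 1433 and 761 with no filter, 24 and 18 with at least 10 counts in every library, and 0 to 680 higher and 0 to 344 lower with 1 library left out, 0 being the count in both directions without library 10.
Of the listed genes, 2 were called higher and 0 lower; these were 1 higher with upper-quartile factors, 0 with library size only, 31 and 10 with DESeq2, 34 and 8 with the likelihood ratio test, 41 and 7 with no filter, 1 with at least 10 counts in every library, 1 without the 18S gene and, with 1 library left out, 0 to 21 higher and 0 to 2 lower.
Of the Gasdermin C genes 2 were called, against 3 with DESeq2, the likelihood ratio test or no filter, 1 with upper-quartile factors, library size only or the 18S gene left out, 0 where at least 10 counts in every library removed them, and 0 to 3 with 1 library left out, 0 being the count without library 9 and without library 10.
The log2 difference of the summed counts was 5.08 when scaled by enterocyte counts and 4.36 to 4.86 with 1 library left out. That of Gsdmc3 was 4.55 and 3.54 with prior counts of 0.5 and 5, 4.5 when scaled by enterocyte counts and 4.05 to 4.17 with 1 library left out, and that of Gsdmc4 was 4.69 when scaled by enterocyte counts. No alternative turned the sign of a Gasdermin C difference. The genes were picked for their rise in these same libraries, so nothing is read from that.
With 1 library left out, list medians ran from 4.4 to 11.06 for B cell, 0.72 to 1.64 for follicle and M cell, 0.18 to 0.32 for the IL-4 and IL-13 axis, -0.79 to -0.4 for enterocyte, -0.55 to -0.06 for goblet, 0.06 to 0.15 for interferon gamma, -0.36 to 0.18 for other gasdermins and 0.78 to 0.86 for proteases. For windows of 50 and 150 bases the shared percentages were 16.1 and 3 for Gsdmc, 51.3 and 14.9 for Gsdmc2, 46 and 18 for Gsdmc3 and 39 and 8.8 for Gsdmc4. The other 94 values under alternatives stayed within 1.5 times the count, or within 1 SD of the libraries for a difference or median. Of these, only the median of the epithelial type 2 response changed sign, to -0.02. The 94 include those of Gsdmc2, whose SD was 0.667 beside 0.061 for Gsdmc3. With 1 library left out, the log2 difference of Gsdmc2 ran from 4.44 to 5.56, a wider range than that of Gsdmc3. With prior counts of 0.5 and 5 it was 5.4 and 4.41. The B cell range rests on fitted values of genes at 0 in p53+/+. The cause of these shifts was not tested. Where a genotype is left with 1 library, it is assumed to vary like the other genotype. The low p53+/+ counts limit the ratios of single genes, and shared sequence limits how the sum is split among them.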
